A study of Mus musculus with 6 samples.

Results

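The proteins of the mitochondrial ribosome were followed through 6 mouse expression arrays of samples labelled as hematopoietic stem cells (HSC). Such cells sit in the bone marrow and renew the blood. Below, Selp-/- HSC names samples by their label. The members are the probe sets annotated with a single gene symbol that starts Mrpl or Mrps followed by a digit. There were 85 such probe sets for 77 genes among the 28815 probe sets of the array, 53 for 48 Mrpl genes of the large subunit and 32 for 29 Mrps genes of the small subunit. The subunit is taken from the symbol, except where ribosome structures are named. A further probe set named Ccdc142 and Mrpl53 together and was left out. Of the 6 samples, 3 were wild type (WT) and 3 were Selp-/-, without the gene that encodes P-selectin, an adhesion molecule of platelets and endothelium. Both genotypes are C57BL/6 in the labels, which number the samples 1 to 3 per genotype and name no age, sex, treatment or sorting scheme. The sources used here do not describe the Selp allele. Whether each sample is a different mouse is not stated either, and p-values thus reflect the spread among these samples only, part of which may be technical.

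Mitochondria carry their own ribosomes, which make a small set of hydrophobic subunits of the respiratory chain and ATP synthase from messages of the mitochondrial genome. Their RNA parts are encoded in mitochondrial DNA, while every protein part is encoded in the nucleus, made in the cytosol and imported. The large subunit forms peptide bonds and holds the exit tunnel, and the small subunit binds the message and decodes it. Blood stem cells are known for their reliance on tight control of mitochondrial activity and of protein synthesis as they leave quiescence.

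Values are log2 levels of the deposited probe set intensities after background correction and quantile normalization, and a difference is a difference of log2 levels, Selp-/- minus WT. After probe sets in the lowest 40% of mean level were set aside, 77 of the 85 member probe sets were tested, 49 of the large and 28 of the small subunit, for 71 genes. The 8 not tested belonged to Mrpl22, Mrpl42, Mrpl47 (both probe sets), Mrps17, Mrps27 and Mrps36 (both probe sets). The WT SD of a tested member had a median of 0.16 (n = 3), and so did the Selp-/- SD.

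The 6 arrays also differed in ways that did not follow the genotype. Median intensities ran from 563 in WT 2 to 751 in WT 3, and the numbers 3 of both genotypes stood apart in cell type markers. Of 8 tested probe sets of HSC markers, all lay lower in the arrays numbered 3 than in numbers 1 and 2, with a median log2 difference of -2.01, and Hlf, an HSC transcription factor, measured 8.88 in WT 3 and 8.81 in Selp-/- 3 against 12.13 or more in the other arrays. All 6 probe sets of mast cell and basophil markers lay higher there, by a median of 2.75. Xist, the transcript of the inactive X chromosome, had an intensity of 398 in Selp-/- 3 and of at least 5010 elsewhere. No probe set carried the name Selp, so the deleted gene was not analysed here. Results are therefore given within each array number as well as over all arrays. The Xist difference lies between the arrays numbered 3 and remains in that comparison. In bulk samples, a change in the share of a cell type and a change in RNA per cell cannot be told apart.

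The median level of mitochondrial ribosomal protein genes varied from array to array, and the medians of both subunits took the same order. Each probe set was set against its own mean over the 6 arrays, and the median over the members was taken relative to all tested probe sets. The large subunit stood at 0.049, -0.15 and -0.0078 in WT arrays 1 to 3, and at 0.087, -0.087 and 0.11 in Selp-/- arrays 1 to 3. The small subunit stood at 0.065, -0.20 and -0.024 in WT against 0.083, -0.084 and 0.17 in Selp-/- HSC. WT 2 was thus the lowest array and Selp-/- 3 the highest for each subunit, with Selp-/- 2 the lowest of its genotype.

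**Figure D1:**
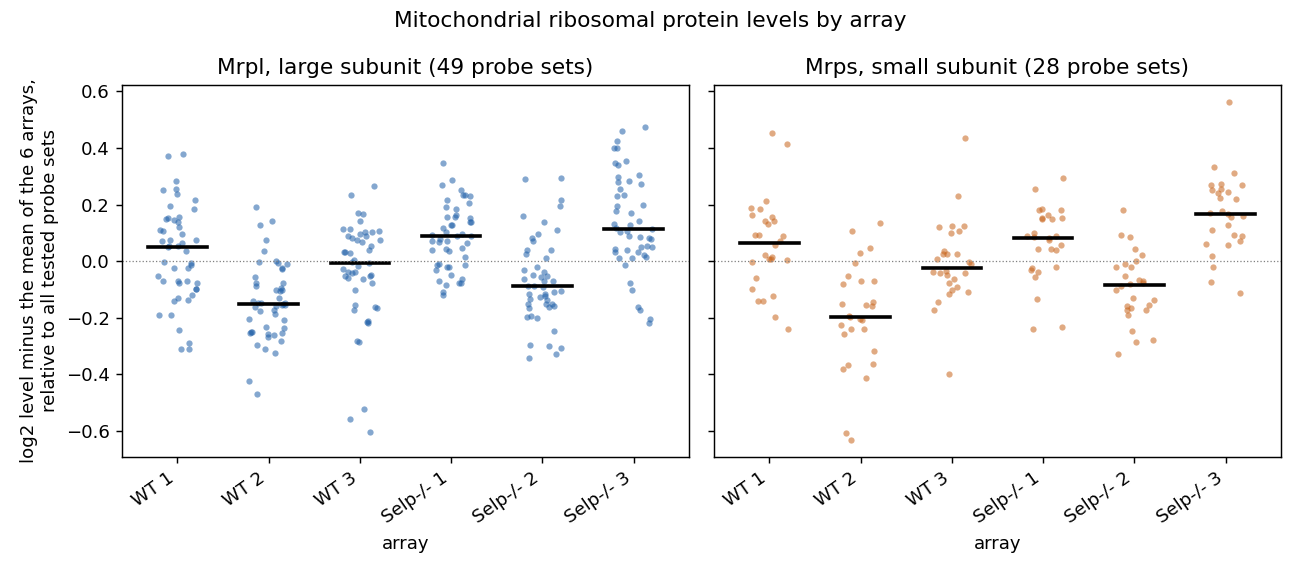
Log2 level of each tested probe set minus its mean over the 6 arrays, relative to all tested probe sets, for the large (49 probe sets) and small subunit (28 probe sets), by array. Points are probe sets and bars are medians, which run from -0.15 in WT 2 to 0.11 in Selp-/- 3 for the large subunit and from -0.20 to 0.17 for the small subunit.

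The ends of this order were also those of many single probe sets. WT 2 was the lowest of the 6 arrays for 39 of the 77 members, 25 of 49 in the large and 14 of 28 in the small subunit, while it was lowest for 18.5% of all tested probe sets. Selp-/- 3 was the highest array for 37 members, 23 of the large and 14 of the small subunit, and for 17.0% of all tested probe sets. WT 2 was the highest array for 1 member, Mrpl35, against 19.2% of all tested probe sets, and Selp-/- 3 the lowest for 1, Mrps25, against 19.7%.

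Member levels were also set beside array brightness, whose part in them was not tested. Before any normalization, the median intensity of the Mrpl probe sets divided by that of all probe sets on the array was 1.84, 1.45 and 1.52 in WT arrays 1 to 3, and 1.98, 1.66 and 1.85 in Selp-/- arrays 1 to 3. For the Mrps probe sets the ratios were 1.54, 1.29 and 1.36 in WT against 1.58, 1.33 and 1.52 in Selp-/- HSC. WT 2 was the dimmest array and had the lowest ratio of both subunits. WT 3 was the brightest array, at a median of 751, and had the second lowest ratio for the large subunit. Selp-/- 1, at a median of 701, had the highest ratio of both subunits. It was followed by Selp-/- 3, at a median of 713, for the large subunit and by WT 1 for the small subunit. By this measure Selp-/- 3 was thus the highest array for neither subunit. Within each array number the ratio was higher in the Selp-/- array for both subunits, while the array itself was brighter in the Selp-/- arrays for numbers 1 (701 against 636) and 2 (638 against 563) and dimmer for number 3 (713 against 751).

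**Figure D2:**
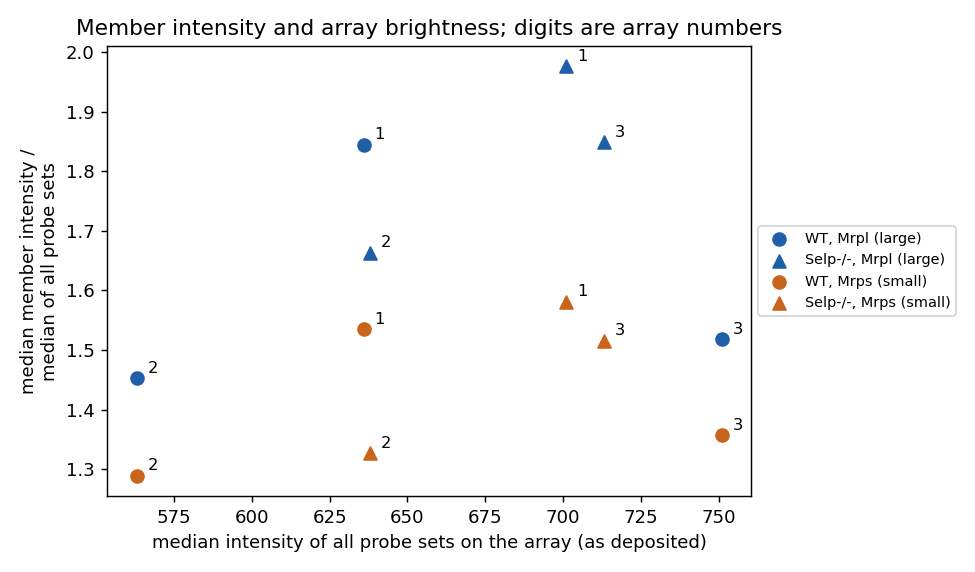
Median deposited intensity of the Mrpl and of the Mrps probe sets divided by the median of all probe sets on the same array, against that median, for the 6 arrays; digits are array numbers, circles WT and triangles Selp-/-. WT 2 (563) and WT 3 (751) lie at opposite ends of the brightness axis with large subunit ratios of 1.45 and 1.52.

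By genotype, most members of both subunits lay slightly higher in the Selp-/- arrays, and no single member passed the test. The median difference was 0.095 over the large subunit, a ratio of 1.07, with 43 of 49 probe sets above 0, and 0.11 over the small subunit, a ratio of 1.08, with 23 of 28 above 0. Over all 17289 tested probe sets the median was 0.0054, and 51.8% lay above 0. Limma called 0 of the 77 members at an adjusted p of 0.05, and 0% of all tested probe sets in either direction. At an unadjusted p under 0.05 there were likewise 0 members, against 0.428% of all probe sets higher and 0.278% lower. The smallest unadjusted p of a member was 0.0557 in the limma fit, and the SE of a single member's difference had a median of 0.15.

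Within array numbers the difference was uneven. Between the arrays numbered 1 the large subunit differed by a median of 0.056, with 27 of 49 probe sets higher in the Selp-/- arrays, and the small subunit by -0.027, with 13 of 28 higher. Between those numbered 2 the medians were 0.075 (34 of 49 higher) and 0.12 (17 of 28 higher). Between those numbered 3 they were 0.18 (42 of 49 higher) and 0.17 (22 of 28 higher). All tested probe sets had medians of 0.0029, 0.010 and 0.00083 in the same order, with 50.5%, 51.9% and 50.1% above 0. The members' medians were thus largest in number 3, and in number 1 those of the subunits had opposite signs. Markers of proliferation also lay higher in the Selp-/- arrays for 9 of 10 tested probe sets, with a median of 0.046, and for 10, 2 and 9 of 10 in numbers 1, 2 and 3. Markers of blood cell types differed within the same pairs. In number 3 the median was -0.75 for megakaryocyte markers (0 of 5 higher), -0.40 for mast cell and basophil (0 of 6), 0.52 for monocyte and macrophage (4 of 7), 0.33 for T and NK cell (2 of 2), -0.24 for B cell (2 of 6), -0.22 for erythroid (2 of 6), -0.11 for HSC (2 of 8) and -0.068 for neutrophil markers (5 of 10). In number 2 megakaryocyte markers had a median of 0.54 (5 of 5 higher) and mast cell and basophil markers of 0.23 (5 of 6). T and NK cell markers had one of 0.16 (2 of 2), HSC of 0.13 (7 of 8) and erythroid of 0.099 (3 of 6). Neutrophil markers had one of 0.076 (6 of 10), monocyte and macrophage of -0.042 (3 of 7) and B cell of -0.17 (0 of 6). In number 1 HSC markers had a median of -0.28 (1 of 8) and neutrophil markers of -0.27 (4 of 10). Mast cell and basophil markers had one of -0.10 (2 of 6), B cell of -0.036 (2 of 6) and T and NK cell of 0.0095 (1 of 2). Erythroid markers had one of 0.090 (4 of 6), megakaryocyte of 0.13 (4 of 5) and monocyte and macrophage of 0.14 (4 of 7). Xist also differed within number 3, at an intensity of 5010 in WT 3 and 398 in Selp-/- 3. The part of these markers and of Xist in the members' difference was not tested.

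**Figure D3:**
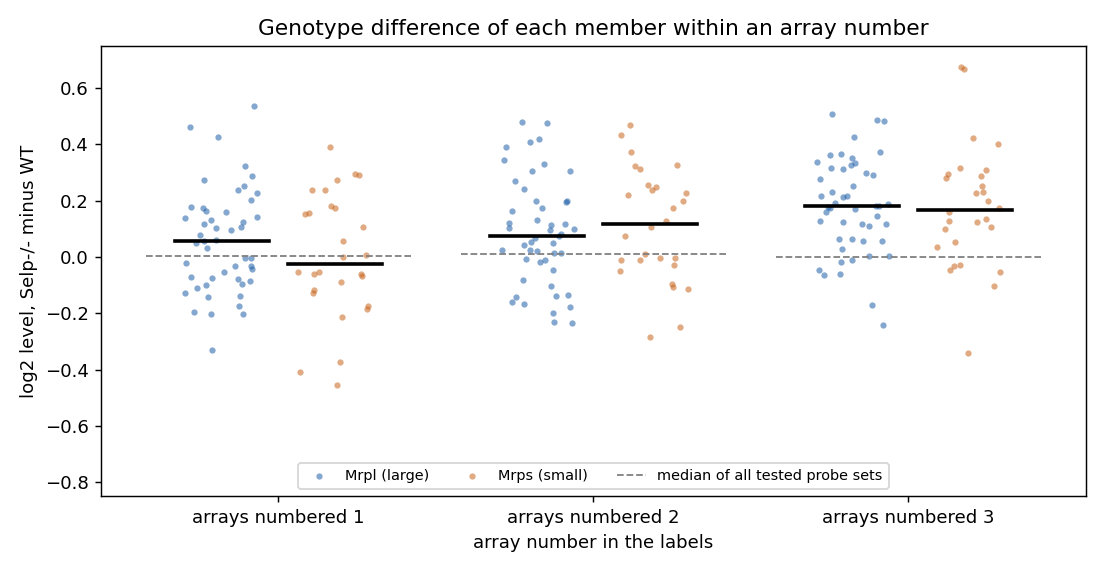
Log2 level in Selp-/- minus WT for each tested Mrpl (49) and Mrps (28) probe set within each array number, with the median of each subunit (black bars) and of all tested probe sets (dashed). The large subunit medians are 0.056, 0.075 and 0.18, and the small subunit medians -0.027, 0.12 and 0.17, for numbers 1, 2 and 3.

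The size of the shift rested on single arrays. Relative to all tested probe sets, the median over both subunits was 0.090 with all arrays, 0.038 without WT 2 and 0.034 without Selp-/- 3. It was 0.16 without Selp-/- 2, 0.13 without WT 1, 0.11 without WT 3 and 0.081 without Selp-/- 1. In the arrays numbered 1 and 2 alone it was 0.060. For the small subunit the relative median was 0.10 with all arrays, 0.020 without WT 2 and 0.037 without Selp-/- 3. Each of these medians lay above 0, but the runs share arrays and are not independent. Members above the median of all tested probe sets numbered 63 of 77 with all arrays, 50 without WT 2 and 46 without Selp-/- 3. Without any other single array they numbered from 62 to 70. For the small subunit the counts were 23 of 28 with all arrays, 17 without WT 2 and 16 without Selp-/- 3. With the array number as a block the fit still called 0 members, with the lowest adjusted p at 0.983 in limma. At an unadjusted p under 0.05 that fit held 8 of 77 members, all higher, against 1.89% of all tested probe sets higher and 1.75% lower.

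In 20 of the 77 members the Selp-/- array lay above the WT array in all 3 array numbers, 15 of the large and 5 of the small subunit, against 12.6% of all tested probe sets. Mrps25 was the only member below in all 3, against 11.2%. The genotypes did not overlap for 1 member, Mrpl54, beside 2.24% of all tested probe sets whose Selp-/- values all lay above WT and 1.97% whose values all lay below.

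Among large subunit proteins, Mrpl54, which has no bacterial counterpart, measured 10.02, 9.60 and 9.97 in WT 1 to 3 and 10.19, 10.08 and 10.29 in Selp-/- 1 to 3. Every Selp-/- value lay above every WT value, by a difference of 0.32 (SE 0.15, adjusted p = 1 in limma). Mrpl27, the counterpart of a bacterial protein that reaches toward the peptidyl transferase centre, gave 8.74, 8.40 and 8.89 in WT against 9.16, 8.81 and 9.21 in Selp-/- HSC on its dimmer probe set. The difference was 0.39 (SE 0.17), and the pairs differed by 0.43, 0.41 and 0.33, and the genotypes overlapped only because WT 3 exceeded Selp-/- 2. This was the dimmest tested large subunit probe set, at a mean of 8.87, close to the level of 8.79 under which probe sets were left out. The other probe set of Mrpl27 gave a difference of 0.12 (SE 0.14), with WT 1 level with Selp-/- 1 at 10.14 and 10.11. Mrpl21 measured 9.14, 9.12 and 9.54 in WT against 9.43, 9.54 and 9.89 in Selp-/- HSC, a difference of 0.35 (SE 0.18) with all 3 pairs in 1 direction. Mrpl2, a core protein of the peptidyl transferase region, measured 9.26, 9.33 and 9.52 in WT against 9.59, 9.43 and 9.89 in Selp-/- HSC, where WT 3 again lay above Selp-/- 2.

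Few large subunit members lay the other way. Mrpl24, near the tunnel exit, measured 10.60, 10.47 and 10.11 in WT against 10.27, 10.49 and 10.11 in Selp-/- HSC. Its difference of -0.10 (SE 0.18) came from the arrays numbered 1. Mrpl30 measured 10.52, 10.40 and 10.61 in WT against 10.39, 10.17 and 10.64 in Selp-/- HSC, a difference of -0.11 (SE 0.16) with full overlap. The differences of Mrpl24 and Mrpl30 turned to 0.031 and 0.039 when the arrays were not normalized to each other, a setting that moved the median of all tested probe sets to 0.11. The other large subunit members below 0 were Mrpl33, Mrpl44, Mrpl50 and 1 of the 2 probe sets of Mrpl41.

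Large subunit members picked for their roles gave differences from -0.10 for Mrpl24 to 0.23 for Mrpl45, none of which passed the test. Mrpl3, a core protein of the large subunit, measured 10.25, 10.31 and 10.09 in WT against 10.53, 10.30 and 10.42 in Selp-/- HSC, a difference of 0.20 (SE 0.13). Mrpl12, part of the stalk that recruits translation factors, gave 0.10 (SE 0.18) and Mrpl11 at the stalk base 0.063 (SE 0.14). Mrpl58, a peptidyl-tRNA hydrolase built into the large subunit, gave 9.62, 9.61 and 9.79 in WT against 9.79, 9.77 and 9.92 in Selp-/- HSC, with a difference of 0.16 (SE 0.11) and all 3 pairs in 1 direction. Mrpl45, which links the ribosome to the inner membrane, gave 0.23 (SE 0.16). Mrpl44, related to the ribonuclease III family, measured 9.22 ± 0.16 in WT against 9.20 ± 0.015 in Selp-/- HSC (SD, n = 3). The differences of Mrpl11 and Mrpl12 fell to -0.013 and -0.092 in the arrays numbered 1 and 2 alone, so their sign rested on the arrays numbered 3.

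Among the Mrps members, Mrps30 is placed in the large subunit by ribosome structures. It measured 8.85, 8.76 and 8.41 in WT against 9.08, 8.77 and 9.08 in Selp-/- HSC. The difference was 0.31 (SE 0.16), of which the arrays numbered 3 gave 0.67 and those numbered 2 gave 0.0094. Mrps30 was the dimmest tested Mrps probe set, at a mean of 8.82. That is close to the level of 8.79 under which probe sets were left out, and its WT 3 value lay below that level. Mrps33 measured 9.45, 8.94 and 9.24 in WT against 9.50, 9.41 and 9.56 in Selp-/- HSC on 1 probe set, a difference of 0.28 (SE 0.15), where WT 2 stood low. Mrps7, which binds the small subunit RNA early in assembly, measured 9.92, 9.87 and 10.05 in WT against 10.21, 9.94 and 10.36 in Selp-/- HSC, a difference of 0.23 (SE 0.15). Mrps5 gave 0.16 (SE 0.12) and 0.093 on its 2 probe sets. None of the differences of Mrps30, Mrps33, Mrps7 or Mrps5 passed the test.

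Mrps21 and Mrps25 were the small subunit members named for a lower mean in the Selp-/- arrays. Mrps21 measured 11.29, 10.71 and 11.50 in WT against 10.84, 10.95 and 11.16 in Selp-/- HSC, a difference of -0.19 (SE 0.22) that had the other sign in the arrays numbered 2. Mrps25 measured 9.58, 9.53 and 9.47 in WT against 9.45, 9.52 and 9.36 in Selp-/- HSC, lower in every pair by at most 0.13, and its difference of -0.081 turned to 0.020 without normalization between arrays. Mrps11, Mrps14 and Mrps15 also lay below 0, Mrps15 by -0.082 (SE 0.17). Of the brightest members of the large subunit, Mrpl40 gave 0.11 (SE 0.15) and Mrpl34 0.026 (SE 0.13).

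Other Mrps members picked for their roles gave differences of at most 0.19 where tested. Mrps12, a protein of the decoding centre, measured 9.06, 9.19 and 9.31 in WT against 9.07, 9.30 and 9.26 in Selp-/- HSC, a difference of 0.022 (SE 0.12). Mrps16 gave 0.080 (SE 0.16), Mrps22 0.18 (SE 0.15) and Mrps34 0.063 (SE 0.14); the genes of all 3 are known from human mitochondrial disease. The 3 Mrps18 paralogs gave 0.12 (SE 0.18) for Mrps18a, 0.15 (SE 0.14) for Mrps18b and 0.19 (SE 0.33) for Mrps18c. Mrps18c spread most, at 10.67, 9.58 and 10.10 in WT against 10.26, 9.90 and 10.77 in Selp-/- HSC. Mrps27, an RNA-binding protein, was not tested and measured 8.74, 8.48 and 8.51 in WT against 8.74, 8.41 and 8.97 in Selp-/- HSC. Mrps36, now counted as a part of the alpha-ketoglutarate dehydrogenase complex, was not tested either, and both of its probe sets were highest in the arrays numbered 3, at 8.64 and 8.55 in WT against 9.07 and 8.61 in Selp-/- HSC.

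**Figure D4:**
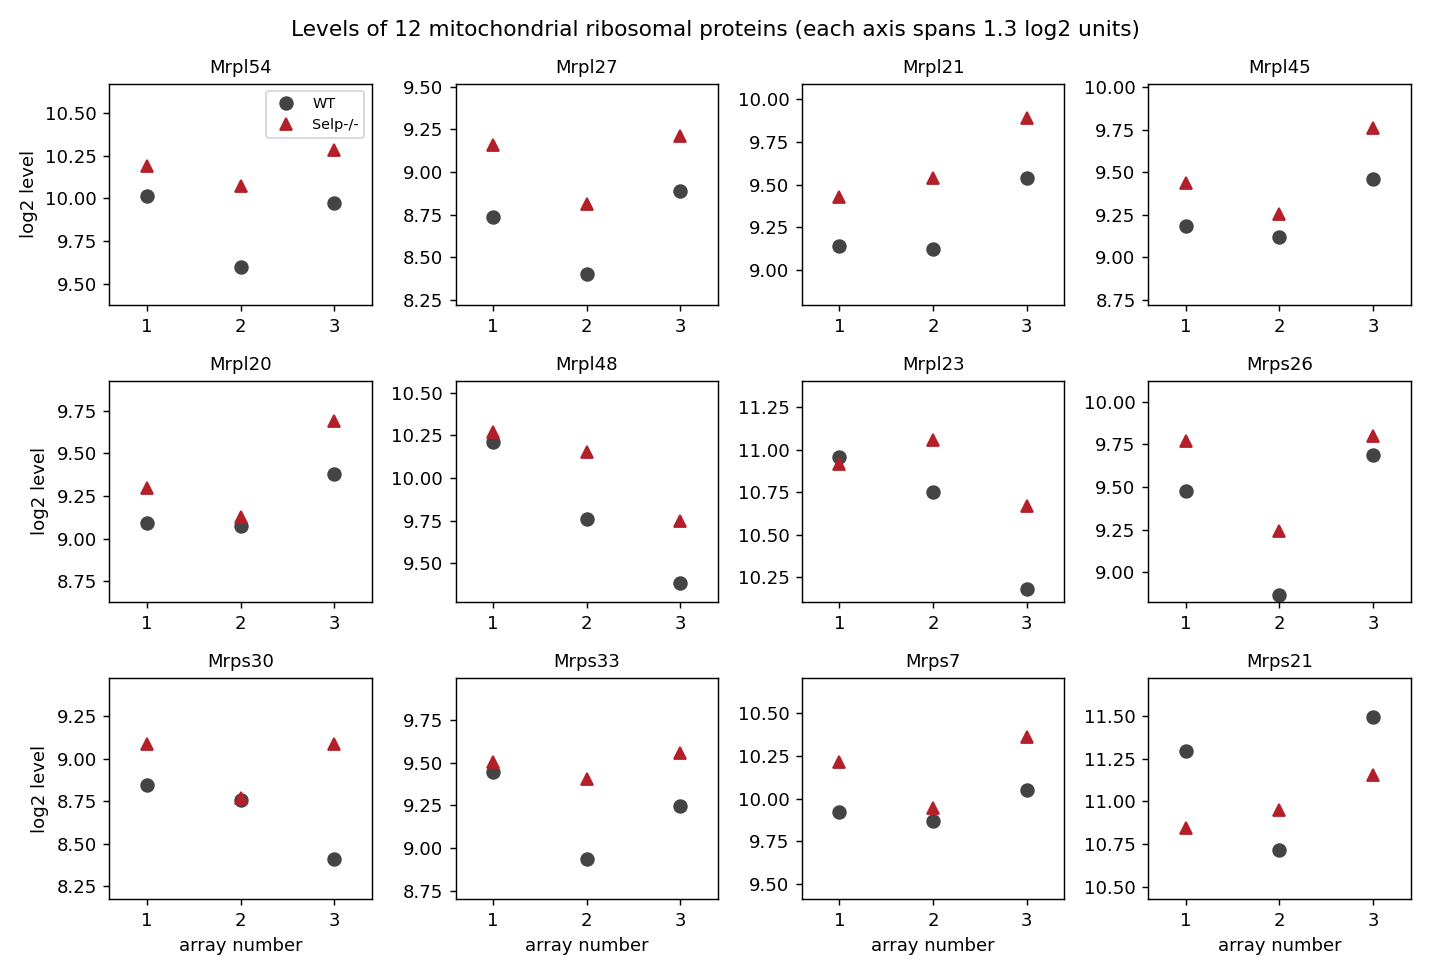
Log2 level of 12 members in WT (circles) and Selp-/- HSC (triangles) by array number; each axis spans 1.3 log2 units around the gene's mean, with 1 probe set shown per gene. Mrpl54 shows no overlap of the genotypes, Mrpl48 and Mrpl23 lie lowest in number 3, and Mrps21 lies lower in the Selp-/- arrays in numbers 1 and 3 only.

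The probe sets of a gene did not always move alike. Of the 8 genes with 2 probe sets, Mrpl23 had levels that correlated at 0.997 over the 6 arrays and Mrps33 at 0.961, while those of Mrpl51 correlated at -0.557 and those of Mrpl41 at 0.216. These are descriptions of 6 values each. Ribosomal protein genes have processed copies in the genome, and near-identical probe sets can share sequence. No probe sequence was examined, so the values of these 8 genes, and of members with a single probe set, are uncertain in this respect.

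For array number 3, whose meaning the labels do not give, the share of members called was below that of all tested probe sets in each direction. In the arrays numbered 3 against numbers 1 and 2, with genotype as a covariate, limma called 4 members higher, against 9.13% of all tested probe sets higher, and 3 lower, against 11.7% lower. The shares of the 77 members were 5.19% and 3.90%. At an unadjusted p under 0.05 there were 10 members higher and 5 lower, against 15.5% and 20.2% of all tested probe sets. The median shift was 0.071 over the large and 0.081 over the small subunit, with 33 of 49 and 21 of 28 above 0, and -0.013 over all tested probe sets, of which 48.0% lay above 0 and 52.0% below. In WT the shift had medians of 0.032 and 0.039 for large and small subunit, and in the Selp-/- arrays of 0.088 and 0.18.

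The 4 called higher were Mrpl21, Mrpl20, Mrpl45 and Mrps26. Mrpl21 differed by 0.41 (SE 0.10, adjusted p = 0.0291 in limma), or 1.33 times. Mrpl20 measured 9.09, 9.08 and 9.38 in WT against 9.30, 9.13 and 9.69 in Selp-/- HSC, and Mrpl45 9.19, 9.12 and 9.46 in WT against 9.44, 9.25 and 9.76 in Selp-/- HSC. In both genes number 3 was the highest array of its genotype, by 0.38 (SE 0.11) and 0.36 (SE 0.10), with adjusted p-values of 0.0453 and 0.0476 in limma. Mrps26 measured 9.48, 8.87 and 9.69 in WT against 9.77, 9.24 and 9.80 in Selp-/- HSC, a number 3 difference of 0.40 (SE 0.11, adjusted p = 0.0390 in limma), where the arrays numbered 2 stood low and Selp-/- 1 and Selp-/- 3 were level.

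The 3 called lower were Mrpl48 and both probe sets of Mrpl23. Mrpl48 measured 10.21, 9.76 and 9.38 in WT against 10.27, 10.15 and 9.75 in Selp-/- HSC, 1.45 times less in number 3 (log2 difference -0.53, SE 0.12, adjusted p = 0.0220 in limma). Mrpl23, at the tunnel exit, measured 10.95, 10.75 and 10.18 in WT against 10.91, 11.06 and 10.67 in Selp-/- HSC on its dimmer probe set, with a number 3 difference of -0.49 (adjusted p = 0.0472 in limma). In each of these probe sets number 3 was the lowest array of its genotype. Without normalization between arrays 19 members were called higher and 0 lower, and all tested probe sets split into 3908 higher and 769 lower, against 1578 and 2025 with it. Leaving out any 1 of the 6 arrays left 0 to 3 members higher and 0 to 3 lower, with 0 and 0 without WT 3. In these arrays HSC markers were lower and mast cell and basophil, neutrophil and monocyte markers higher, with 6 of 6, 9 of 10 and 6 of 7 probe sets of the last groups called. Their part in the members' shift was not tested.

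Between numbers 1 and 2, 64 of 77 members lay lower in number 2, with a median difference of -0.17 over the large subunit (42 of 49 lower) and -0.23 over the small subunit (22 of 28 lower). Limma called 0 of them, and 0.0463% of all tested probe sets lower and 0.00578% higher. At an unadjusted p under 0.05 there were 9 members lower and 0 higher, against 4.70% and 3.26% of all tested probe sets. The lower level in number 2 was there in each genotype, for 64 of 77 members in WT against 60 of 77 in Selp-/- HSC. Marker lists moved both ways between the same arrays. All 10 neutrophil and all 6 erythroid probe sets lay lower in number 2, with medians of -1.07 and -1.10. All 10 of proliferation did so too, with a median of -0.25. B cell markers lay higher for 6 of 6 and HSC markers for 7 of 8, each with a median of 0.33. Mast cell and basophil (4 of 6 higher), monocyte and macrophage (5 of 7) and megakaryocyte markers (3 of 5) had medians of 0.091, 0.073 and 0.040. For T and NK cell markers the median was -0.090 (1 of 2 higher). The part of these markers in the members' difference was not tested.

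Some of these proteins have bacterial counterparts and others are found in mitochondrial ribosomes only, a split that was compared without a test. The 30 tested large subunit probe sets of proteins with a bacterial counterpart had a median genotype difference of 0.098 (27 above 0), and the 19 of mitochondria-specific proteins 0.095 (16 above 0). In the small subunit the medians were 0.075 over 18 probe sets (14 above 0) and 0.15 over 10 (9 above 0). Ribosome structures place Mrps30 and Mrps18a in the large subunit. With those counted there and Mrps36 left out, the medians were 0.10 over 51 and 0.087 over 26 probe sets.

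Other proteins of mitochondrial translation were compared through lists of known members. Of the 4 tested ribosomal proteins whose symbols lie outside the rule, among them Dap3 and Chchd1, 2 lay above 0 by genotype, with a median of 0.037. Translation factors had a median of 0.072, with 13 of 15 above 0, and Tsfm, the elongation factor that recharges Tufm, measured 10.04 ± 0.16 in WT against 10.24 ± 0.062 in Selp-/- HSC (SD, n = 3). Assembly factors and rRNA enzymes had a median of 0.018, with 11 of 21 above 0. Eral1, a chaperone of the small subunit RNA, measured 9.65 ± 0.11 in WT against 9.87 ± 0.17 in Selp-/- HSC. Mitochondrial aminoacyl-tRNA synthetases had a median of 0.038, with 12 of 16 above 0, and factors of mitochondrial DNA and transcription 0.093, with 10 of 12 above 0. Regulators of mitochondrial biogenesis had a median of 0.041, with 5 of 9 above 0. Limma called 0 genes of these 6 lists by genotype, and at an unadjusted p under 0.05 the count was 1, Iars2, at -0.33 (SE 0.13).

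Oxidative phosphorylation genes had the same lowest, next lowest and highest arrays as the mitochondrial ribosome, with the other 3 in another order. The 109 tested probe sets of oxidative phosphorylation stood at 0.038, -0.21 and 0.058 in WT against 0.029, -0.11 and 0.20 in Selp-/- HSC. Their genotype difference had a median of 0.078, with 85 above 0, and medians of 0.027, 0.077 and 0.15 in numbers 1, 2 and 3. The 211 probe sets of cytosolic ribosomal proteins stood at 0.13, -0.0046 and -0.11 in WT against 0.0083, 0.10 and -0.11 in Selp-/- HSC, with a genotype median of -0.013. These orders were not tested against each other.

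By array number, limma called 2 of the 77 tested probe sets of these 6 lists higher in number 3 and 5 lower, 2.60% and 6.49%, against 9.13% and 11.7% of all tested probe sets. In number 3 limma called Mycn, Gabpb1 and Myc lower, with log2 differences of -1.28, -0.67 and -0.64, and Esrra, a nuclear receptor that drives respiratory genes, higher by 0.47. Of the translation factors, the elongation factor Gfm1 was called higher by 0.39 and Guf1 lower, at -0.59. Top1mt, the mitochondrial topoisomerase, was called lower, at -0.35. These 7 genes were named after their values were seen. No gene of the assembly, synthetase or outside-the-rule lists was called in number 3.

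The members were also compared by the DNA before their starts, since nuclear genes of mitochondrial proteins are known for promoters with sites of ETS factors such as GABPA, of YY1 and of Nrf1. RefSeq promoter windows (GRCm38.p6), from 250 bases before to 50 after a start, were found for 68 of the 77 genes, 74 windows in all. Mrpl13, Mrpl15, Mrpl19, Mrpl38, Mrpl4, Mrpl54, Mrps28, Mrps34 and Mrps35 had none. The 5 stretches below, each the 60 bases before a start, show motif letters in capitals. They were picked by hand, after the matches were seen, among members with 1 window, since the values of Mrpl58, Mrps18a, Mrps22 and Mrps26 are given above and Mrpl9 holds the longest letters searched.
Mrpl9: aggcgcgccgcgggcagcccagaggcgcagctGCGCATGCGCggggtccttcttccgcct
Mrpl58: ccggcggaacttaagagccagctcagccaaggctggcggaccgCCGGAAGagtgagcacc
Mrps18a: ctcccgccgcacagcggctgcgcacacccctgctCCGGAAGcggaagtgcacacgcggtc
Mrps22: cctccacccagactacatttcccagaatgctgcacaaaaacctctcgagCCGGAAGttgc
Mrps26: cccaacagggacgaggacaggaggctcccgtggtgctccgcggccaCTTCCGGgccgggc
The capitals mark the full Nrf1 motif in Mrpl9 and the ETS letters CCGGAAG, or their reverse complement, in the other 4. The stretches lie at chr3:94443276-94443335 (+), chr11:115403692-115403751 (+), chr17:46110944-46111003 (+), chr9:98601680-98601739 (-) and chr2:130563697-130563756 (+), in that order. The letters begin 28, 17, 26, 11 and 14 bases before the start. Mrpl9 measured 9.70, 9.33 and 9.57 in WT against 9.63, 9.67 and 9.63 in Selp-/- HSC, with WT 2 low and a genotype difference of 0.11 (SE 0.13).

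The ETS letters CCGGAAG stood, on either strand, in 25 of the 74 member windows (33.8%) and in 11.6% of the windows of all protein-coding genes. They were in 14 of 47 large subunit windows and 11 of 27 small subunit windows. The YY1 letters AAGATGGC stood in 12 windows (16.2%), against 3.05%. The Nrf1 core GCATGCGC stood in 8 windows (10.8%), 7 of them of the large subunit, against 3.51%, and the full Nrf1 motif, a palindrome of 10 letters that contains that core, in 3 windows, of Mrpl9, Mrpl32 and Mrpl39, against 1.33%. TATAAA stood in 5 windows (6.76%), against 12.6%. Median GC content was 58.5% in member windows and 56.3% in all protein-coding ones, and the median number of CG steps 21 and 13. A match is letters in a window and not a shown binding site.

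Many members start head to head with another gene. For 19 of 68 member genes (27.9%) another protein-coding gene started on the other strand within 300 bases upstream, 14 of 42 in the large and 5 of 26 in the small subunit, against 6.48% of 17491 protein-coding genes. Mrps12 lies so beside Sars2, the mitochondrial seryl-tRNA synthetase, and Mrpl43 beside Twnk, the mitochondrial DNA helicase. Mrpl46 and Mrps11, 1 protein of each subunit, start head to head with 41 bases between their starts (chr7:78783090-78783130, + strand), shown since they part the 2 genes.
Mrpl46-Mrps11: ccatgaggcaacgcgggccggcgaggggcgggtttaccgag
No ETS, YY1 or Nrf1 core letters stand in these 41 bases, which are shorter than the windows searched. Outside them, the Mrps11 window holds YY1 letters at position -107 from its start, and the Mrpl46 window holds TATAAA.

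**Figure D5:**
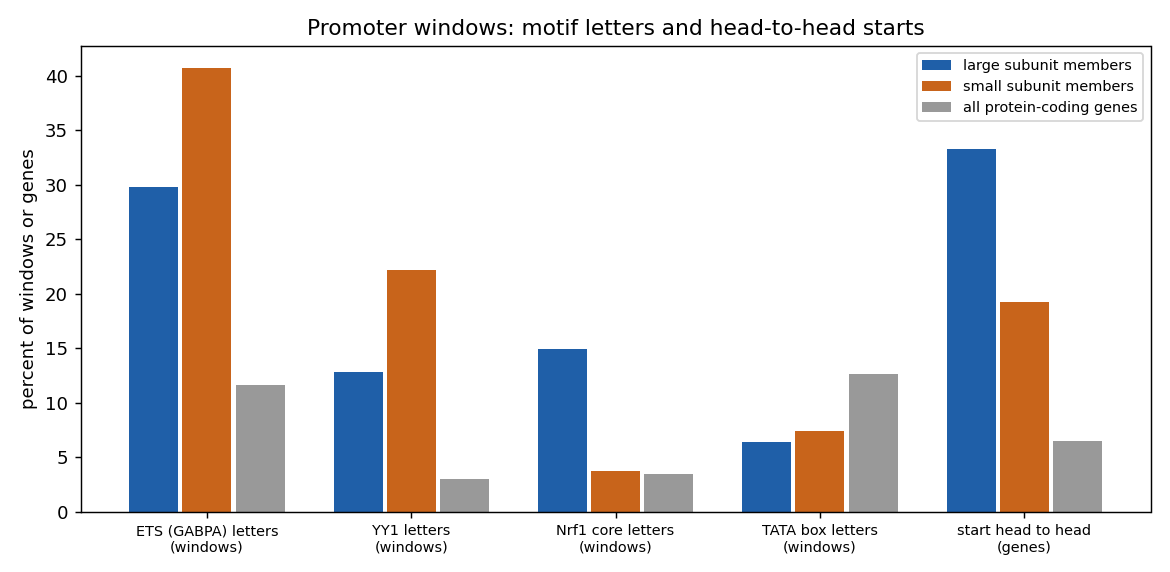
Share of promoter windows (250 bases before to 50 after the start) with the motif letters, and share of genes with a start head to head within 300 bases, for large subunit members (47 windows, 42 genes), small subunit members (27 windows, 26 genes) and all protein-coding genes. ETS letters stand in 29.8%, 40.7% and 11.6% of windows and head-to-head starts in 33.3%, 19.2% and 6.48% of genes.

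Both genes of that pair were lowest in number 2 of each genotype, as most members were low there: 64 of 77 lay lower in number 2 than in number 1. Mrpl46 measured 9.57, 9.29 and 9.38 in WT against 9.54, 9.15 and 9.74 in Selp-/- HSC, and Mrps11 9.78, 9.14 and 9.24 in WT against 9.41, 9.09 and 9.52 in Selp-/- HSC. The genotype differences were 0.062 (SE 0.17) and -0.047 (SE 0.20). Sars2 gave 0.030 (SE 0.16) beside 0.022 (SE 0.12) for Mrps12, and Twnk -0.041 (SE 0.15) beside 0.089 (SE 0.17) for Mrpl43. Over the 16 tested probe sets of partners that are no members the median genotype difference was 0.026 (11 above 0), beside 0.067 over the 19 tested probe sets of all members that start head to head with any gene (16 above 0), and limma called 0 of either.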

How the data were processed

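Amplified, biotin-labelled cDNA from total RNA of HSC was hybridized to 1-colour arrays, per the labels' protocols. The authors deposited a linear intensity for each probe set. MAS5 is named per the submitters' processing notes, with no version, and no scaling to a common level is visible in the values. Depth is not defined for arrays, and their number, 6, limits the precision. Background was corrected with normexp (offset 50), and log2 values were then quantile normalized. Probe sets under the 40th percentile of mean level (8.79) were left out, which left 17289. Each was fitted with limma 3.58.1 in R 4.3.3 (lmFit, eBayes with a trend), two-sided, with Benjamini-Hochberg adjustment over all of them at 0.05. The fits were also run on simulated data with independent noise. Those data held no spread between array numbers except where it was added, so they do not show how the genotype test fares on these arrays.

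Symbols came from the platform annotation, updated through gene identifiers in RefSeq (GRCm38.p6), where 21689 of 21780 probe sets with 1 symbol matched. The members, lists and comparisons were chosen with earlier results of these data known, and the promoter motifs after the values were seen. Named members are, per subunit, the 4 of smallest genotype p with up to 2 more so that both directions appear, up to 3 called in each direction by array number, the 2 brightest, and a set picked by role. Other genes were named as members at an extreme, as partners or as called list genes, chosen after their values were seen.

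Deviations from the genotype means correlated at 0.43, 0.53 and 0.81 between WT and Selp-/- arrays numbered 1, 2 and 3. WT 2 and Selp-/- 1 correlated at 0.51, above the value for WT 1 and Selp-/- 1. These values thus do not settle whether numbers 1 and 2 are matched across genotypes. Arrays were matched by the number in their labels for the differences within numbers and for the replicate block. The main genotype test used no pairing.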

Additional observations from a re-analysis of the deposited data

How the results depend on the processing

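No member was called by genotype under any alternative run. The replicate block, which pairs arrays by number, called 0 probe sets by genotype, as did the fit without it, and left the relative medians at 0.090 and 0.10 for the large and small subunit. Across background corrections, normalizations and filters the relative median over both subunits lay between 0.085 and 0.11. In arrays numbered 1 and 2 alone, 4 probe sets, none of them members, were called lower by genotype. Leaving out 1 array at a time gave relative medians from 0.034 to 0.17 for the large and from 0.020 to 0.15 for the small subunit, lowest without Selp-/- 3 and WT 2 in turn, and for array number 3 from 730 to 1367 probe sets higher, from 651 to 1806 lower, from 0 to 3 members higher and from 0 to 3 lower. Without normalization array number 3 had 3908 probe sets higher, 769 lower, 19 members higher and 0 lower. Members called higher there were 2 with arrays centred on their medians, 2 (and 1 lower) with no filter and 1 without genotype as covariate; the cause was not tested. Single genotype differences that changed sign without normalization were 0.031 for Mrpl24, 0.039 for Mrpl30, 0.065 for Mrpl44, 0.072 for Mrps15 and 0.020 for Mrps25, where all probe sets shifted by 0.11. In arrays numbered 1 and 2 alone they were -0.013 for Mrpl11, -0.092 for Mrpl12, -0.020 for Mrpl34 and -0.048 for Mrps18c. Leaving out 1 array at a time, sign changed within ranges from -0.065 to 0.17 for Mrpl11, from -0.022 to 0.24 for Mrpl12, from -0.24 to 0.00052 for Mrpl24, from -0.23 to 0.0059 for Mrpl30, from -0.015 to 0.085 for Mrpl34, from -0.073 to 0.072 for Mrpl44, and from -0.041 to 0.092 for Mrps12, from -0.18 to 0.030 for Mrps15, from -0.021 to 0.21 for Mrps16, from -0.039 to 0.25 for Mrps18a, from -0.076 to 0.47 for Mrps18c, from -0.028 to 0.12 for Mrps34. Of the values of single members under alternatives, 505 kept direction and call, 52 lost the call and 26 changed sign. The 505 are mostly genotype differences that were not called in either run. All 52 lost calls were array number 3 differences of the 7 probe sets called there, since no genotype difference had a call to lose. The array number 3 calls thus depended on the setting.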
